A study of Mus musculus with 9 samples.

Results

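Rab GTPases are the small GTP-binding proteins that give each membrane compartment of a cell its identity, and they were followed here as a gene family in ribosome footprints of mouse striatal cells. The family was taken as every row of the deposited gene table whose symbol is Rab, a number and at most 1 letter and 1 further digit, which gave 59 of 36410 rows. The rule reads the symbol alone. Ribosome profiling sequences the stretch of mRNA that sits inside a ribosome and so survives nuclease, and a count reports ribosomes on an mRNA and not the amount of protein. Footprints were counted in 3 immortalized lines of striatal cells from mouse embryos of the C57/BL6 strain, with 3 libraries per line. Control cells (STHdhQ7/Q7) carry knock-in Htt exon 1 with 7 glutamine codons on both alleles, HD-het cells (STHdhQ7/Q111) have 111 on 1 allele, and HD-homo cells (STHdhQ111/Q111) have 111 on both. The paper lists all 3 lines as knock-in models but states that the control line came from WT embryos. All lines were exposed to cycloheximide, which stops elongating ribosomes, for 10 min, and fragments of 26 to 32 nt were isolated from the 80S monosome fraction. Each genotype is represented by 1 line, so genotype and line cannot be told apart, and the 3 libraries of a line come from separate rounds of culture of that line.

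A Rab protein works as a switch. Bound to GTP on a membrane it recruits effectors such as tethers, motors and sorting proteins, and bound to GDP it is drawn off the membrane by a GDP dissociation inhibitor. Exchange factors (GEFs) load the GTP and GTPase-activating proteins (GAPs) end the signal. The switch is held on its membrane by geranylgeranyl lipids on cysteines at the very end of the protein. In neurons the family carries synaptic vesicles, endosomes and axonal cargo, and huntingtin itself is associated with vesicles and with several Rab pathways.

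The membrane anchor can be read from the last codons of each gene, which are shown because they are the part of a Rab that differs in kind between members. All 59 rows had a RefSeq coding sequence in assembly GRCm38.p6, and the last 9 codons before the stop held at least 1 cysteine codon in every one. Cysteine codons stood at the last and third-last positions in 20 genes and at the last 2 positions in 15. In 9 genes the fourth-last codon was a cysteine codon, alone or with another further upstream. A pair of adjacent cysteine codons lay 2 codons before the end in 6 genes, 3 codons before it in 6 and 1 codon before it in 3. The sequences below are the final 30 coding bases, 5′ to 3′ on the coding strand with the stop codon included, and capitals mark the cysteine codons. They belong to 6 members with wide called differences between lines, set beside the closest paralog for Rab38 (Rab32) and for Rab6b (Rab6a), and Rab17, Rab27a and Rab27b, which also differed widely, are not shown.
Rab38, chr7:88490731-88490760, plus strand: gtcagcTGCtctggcTGTgccaaatcctag
Rab32, chr10:10546302-10546331, minus strand: acaacaaagcccaggtcccagTGCTGCtga
Rab6b, chr9:103181217-103181246, plus strand: ccggccagcgagggcggcTGCtccTGTtaa
Rab6a, chr7:100639290-100639319, plus strand: ccagtcaatgaaggcggcTGTtccTGCtaa
Rab20, chr8:11453997-11454026, minus strand: aaacagactagatccgggTGTTGTgcctaa
Rab3b, chr4:108940784-108940813, plus strand: cctctgctgcagcagaacTGCtctTGTtag
Rab31, chr17:65654406-65654435, minus strand: agcttgcaagccagccgtcggTGCTGCtga
Rab23, chr1:33739363-33739392, plus strand: aaccctttcagcagcTGTagtgtaccctaa
Rab38 and Rab32 share their place in the cell but end differently, with cysteine codons set apart in Rab38 and an adjacent pair in Rab32. Rab6a and Rab6b keep the same cysteine spacing.

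Library totals ran from 22504543 to 41888701 counts, and values are given as CPM, which are counts per 1000000 after TMM scaling of the library totals. A count of 3, which is as much as a count of 0 leaves possible, equals 0.0714 to 0.142 CPM depending on the library and covers counting error only. Of 15 markers of striatal precursors 8 were at or above 1 CPM in every library, namely Foxp1, Meis2, Ebf1, Dlx1, Dlx2, Nes, Sox2 and Vim. Bcl11b, Isl1 and Gsx2 of the same list did not exceed 3 counts in any library. Drd1 and Drd2, which define striatal projection neurons, did not exceed 3 counts in any library, and 1 of 9 markers of that cell type, Ppp1r1b, was at or above 1 CPM in all of them. Of 7 mesenchymal markers, collagens included, 6 were at or above 1 CPM in every library, and their summed level was 2608 to 4805 CPM for control, 16160 to 20516 for HD-het and 5533 to 6951 for HD-homo. The sum of the striatal precursor markers was 9648 to 9917 CPM for control, 9073 to 9886 for HD-het and 6092 to 6643 for HD-homo. This sum includes Vim and is not broken down by marker, so single precursor markers need not follow it. The sum of 5 astrocyte markers, with Aqp4 at 3 counts or fewer in every library, was 2.48 to 4.01 CPM for control, 2.201 to 3.07 for HD-het and 11.96 to 14.1 for HD-homo. The sum of 5 microglia markers, with Aif1 and Cx3cr1 at 3 counts or fewer in every library, was 4.93 to 6.64, 18.6 to 26.8 and 4.63 to 6.16 CPM in that order of lines. Of the microglia markers only Tmem119, and of the astrocyte markers none, was at or above 1 CPM in every library. HD-het cells had the highest mesenchymal and microglia sums, and HD-homo cells the lowest precursor and the highest astrocyte sums. The part of these differences in the Rab values given here was not tested.

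The share of footprints on the whole family overlapped between the lines and was not tested. All Rab rows together held 0.302% ± 0.00714 of the control counts (SD, n = 3), 0.307% ± 0.0203 of those of HD-het and 0.310% ± 0.0172 of those of HD-homo. Of the 59 rows 50 passed the filter on low counts and were tested. The other 9 were Rab9b, Rab15, Rab19, Rab25, Rab33a, Rab37, Rab39, Rab42 and Rab44, with no more than 17 counts in a library and no more than 0.567 CPM. Rab25, which serves recycling in epithelia, and Rab37, which serves granule secretion, were among these low rows. Rab9b had a count of 0 in 8 libraries, which allows up to 0.142 CPM.

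Levels of different genes can be compared per codon of coding sequence. On that scale Rab1a, which directs traffic from the ER to the Golgi, was the highest member in control cells at 1.56 ± 0.0807 CPM per codon (SD, n = 3). Rab7, which takes late endosomes to the lysosome, followed at 1.53 ± 0.0683, and Rab2a, which acts between Golgi and ER, at 1.36 ± 0.0279. Of the 26-base windows of their coding sequences, 68.6% for Rab7 and 44.3% for Rab2a occur elsewhere in the genome, against 3.88% for Rab1a. The order of these levels thus depends on how fragments that match several places were treated, which is not known. The intervals of 1 SD of Rab7 and Rab2a did not overlap in control cells, while in HD-het cells Rab2a, at 1.66 ± 0.0368, stood level with Rab1a, at 1.65 ± 0.129 CPM per codon. Rab1b and Rab18, which acts on the ER and lipid droplets, completed the 5 highest with 0.908 ± 0.0364 and 0.861 ± 0.0564 in control cells. Those 5 genes made up 43.7% ± 0.479 of all Rab counts per codon for control, 42.5% ± 0.390 for HD-het and 43.4% ± 0.763 for HD-homo (SD, n = 3). From Rab1a down to the rarest rows the family spanned several orders of magnitude, as the plot of levels per codon shows.

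**Figure D1:**
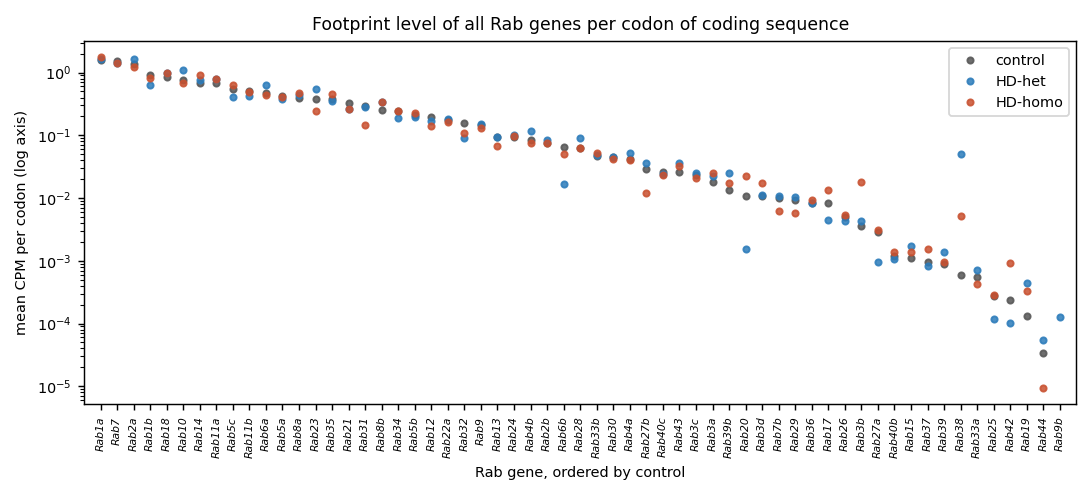
Mean CPM per codon of each of the 59 Rab genes (logarithmic vertical axis) for each of the 3 lines, with genes ordered by the control value; a mean of 0 is not drawn. Rab1a and Rab7 lead in control cells, and the 3 points lie apart in Rab38 and Rab20, while HD-het stands apart from the others in Rab6b and HD-homo in Rab3b.

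The share of Rab genes that passed the test lay below that of all rows in each comparison, and this gap was not itself tested. In HD-het against control cells 22 of 50 Rab genes (44.0%) passed edgeR's quasi-likelihood test at an adjusted p under 0.05, 13 higher and 9 lower. Of the 12678 tested rows 60.1% passed, 31.0% higher and 29.1% lower. In HD-homo against control cells 18 passed (36.0%), 9 higher and 9 lower, against 45.7% of all rows, 23.3% higher and 22.3% lower. With library totals in place of TMM scaling the latter split was 10 higher and 6 lower. Between HD-homo and HD-het cells 26 passed (52.0%), 11 higher and 15 lower, against 67.5% of all rows, 34.6% higher and 32.8% lower. The comparisons with control share the 3 control libraries. The median absolute log2 fold change of the Rab genes was 0.23, 0.19 and 0.30 in these 3 comparisons, and 0.46, 0.32 and 0.55 over all rows tested.

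Large differences were few. A called difference of at least 2-fold was found in 4 Rab genes in HD-het against control cells (20.8% of all rows), in 4 in HD-homo against control (17.2%) and in 8 between the mutant lines (27.3%). The libraries of both lines did not overlap in 28 Rab genes for HD-het and control (71.2% of all rows), 22 for HD-homo and control (55.5%) and 28 for the mutant lines (69.5%). In the test of any difference among the lines 32 of 50 Rab genes passed, against 78.4% of all rows. The 17 genes with no call in a pair of lines included Rab1a, Rab5a, Rab5b, Rab7, Rab9, Rab18 and Rab22a, which serve the ER, early endosomes and late endosomes. They were 34.0% of the Rab genes tested, and 17.8% of all rows had no such call.

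**Figure D2:**
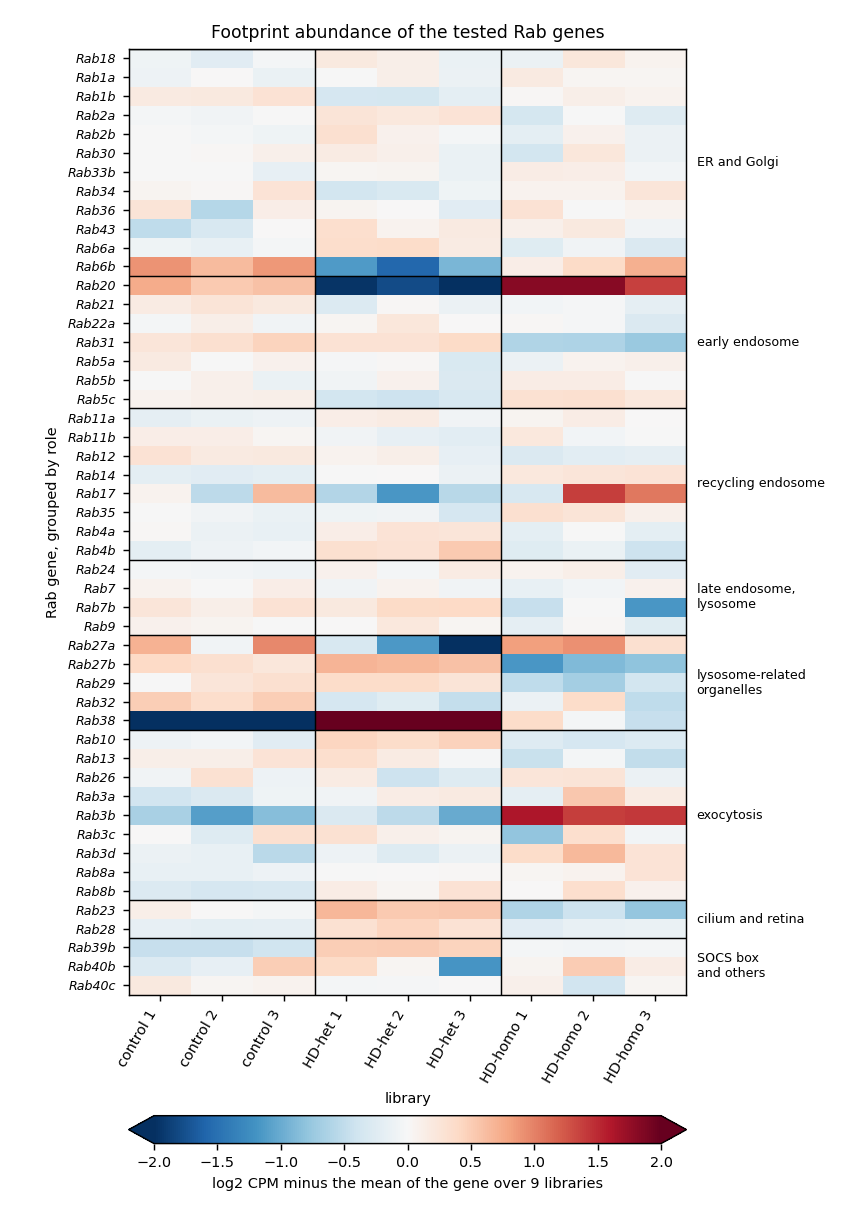
Each cell is the log2 CPM of 1 of the 50 tested Rab genes in 1 of 9 libraries, minus the mean of that gene over the libraries; genes are grouped by role and colours end at 2 log2 units to either side. Rab38, Rab20, Rab6b, Rab3b and Rab27b carry the deepest colours that hold over all 3 libraries of a line, and most rows of the ER, Golgi and late endosome groups stay pale.

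The largest fitted fold difference among the Rab genes was that of Rab38, which belongs to the Rab genes of lysosome-related organelles. These organelles are melanosomes, secretory granules and their like, and the group here is Rab27a, Rab27b, Rab29, Rab32 and Rab38. Of its 5 members 2 were higher and 2 lower in HD-het than control cells, 1 was higher and 3 lower in HD-homo than control cells, and 1 was higher and 3 lower in HD-homo than HD-het cells. That is 80.0% called in each comparison, against 60.1%, 45.7% and 67.5% of all rows. The role lists were chosen with earlier results of these data known.

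Rab38 (chromosome 7, 88430273 to 88491572, plus strand) brings enzymes to melanosomes and other lysosome-related organelles. Its counts were 2, 8 and 3 in the control libraries, 307, 370 and 203 for HD-het and 51, 28 and 18 for HD-homo. On the scaled level this is 0.0764, 0.1903 and 0.113 CPM for control, 11.7, 10.2 and 9.597 for HD-het and 1.42, 1.07 and 0.798 for HD-homo. The 3 lines did not overlap, with HD-het highest and control lowest. The pooled level in HD-het over that in control was 76.5 (95% exact interval 44.5 to 144), counting error only, and in the fit the log2 fold change (log2FC) was 6.22 (SE 0.28, edgeR adjusted p = 3.33e-08). HD-homo over control was 8.36 (95% exact interval 4.66 to 16.3) (log2FC 3.01, SE 0.35, edgeR adjusted p = 3.35e-05), and HD-homo cells lay below HD-het cells (log2FC -3.22, SE 0.21, edgeR adjusted p = 1.83e-07). For HD-het against control the log2FC moved between 5.98 and 6.72 over the alternatives in which Rab38 was tested, and the call held under each. With a minimum of 10 counts in every library the gene was not tested, because of its low control counts.

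Rab32, the closest paralog of Rab38 and a regulator of the same organelles and of mitochondria, went the other way in HD-het cells. Its libraries gave 35.4, 32.3 and 35.6 CPM for control, 20.1, 21.3 and 18.2 for HD-het and 23.2, 32.5 and 17.7 for HD-homo. HD-het cells lay below all control libraries (log2FC -0.79, SE 0.18, edgeR adjusted p = 0.00242). In HD-homo cells the libraries were spread widely and 1 of them reached the control range (log2FC -0.49, SE 0.17, edgeR adjusted p = 0.0386), a call that was lost without control replicate 1, 2 or 3, HD-het replicate 1 or HD-homo replicate 1 or 3, with an edgeR adjusted p of up to 0.109.

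Rab27b, which docks secretory granules and exosome-bearing endosomes, stood at 6.61, 6.28 and 5.91 CPM for control, 8.01, 7.86 and 7.52 for HD-het and 2.25, 2.71 and 2.88 for HD-homo. HD-homo libraries were below all the others (log2FC -1.27, SE 0.13, edgeR adjusted p = 1.48e-05 against control, and log2FC -1.59, SE 0.13, edgeR adjusted p = 1.33e-06 against HD-het). HD-het libraries lay above all control libraries, but the call (log2FC 0.32, SE 0.12, edgeR adjusted p = 0.0423) was lost without control replicate 1, 2 or 3 or HD-het replicate 1, 2 or 3, with an edgeR adjusted p of up to 0.136. Its paralog Rab27a, which carries melanosomes and lytic granules, was low throughout, with 0.687, 0.404 and 0.828 CPM for control, 0.342, 0.192 and 0.0946 for HD-het and 0.751, 0.803 and 0.532 for HD-homo. Rab27a was lowest in HD-het cells (log2FC -1.51, SE 0.43, edgeR adjusted p = 0.0106 against control, and log2FC 1.70, SE 0.43, edgeR adjusted p = 0.00434 for HD-homo against HD-het). These values rest on 18 counts over the HD-het libraries and 57 over the control libraries.

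Rab29, which acts at the trans-Golgi network and lysosomes and recruits the Parkinson disease kinase Lrrk2, had 1.64, 1.95 and 2.07 CPM for control, 2.13, 2.14 and 1.99 for HD-het and 1.17, 1.03 and 1.29 for HD-homo. Its HD-homo libraries were below every other library (log2FC -0.70, SE 0.18, edgeR adjusted p = 0.00843 against control, and log2FC -0.85, SE 0.18, edgeR adjusted p = 0.00155 against HD-het). Lrrk2 itself was at 28.9, 28.8 and 31.9 CPM for control, 21.9, 27.2 and 21.1 for HD-het and 23.3, 26.03 and 21.02 for HD-homo, lower in both mutant lines than in control (log2FC -0.35, SE 0.12, edgeR adjusted p = 0.0248 for HD-het, and log2FC -0.35, SE 0.12, edgeR adjusted p = 0.0323 for HD-homo). The Lrrk2 call in HD-het was lost without control replicate 3 or HD-het replicate 1 or 3, with an edgeR adjusted p of up to 0.0825, and that in HD-homo without control replicate 1, 2 or 3 or HD-homo replicate 1 or 3, with an edgeR adjusted p of up to 0.108.

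**Figure D3:**
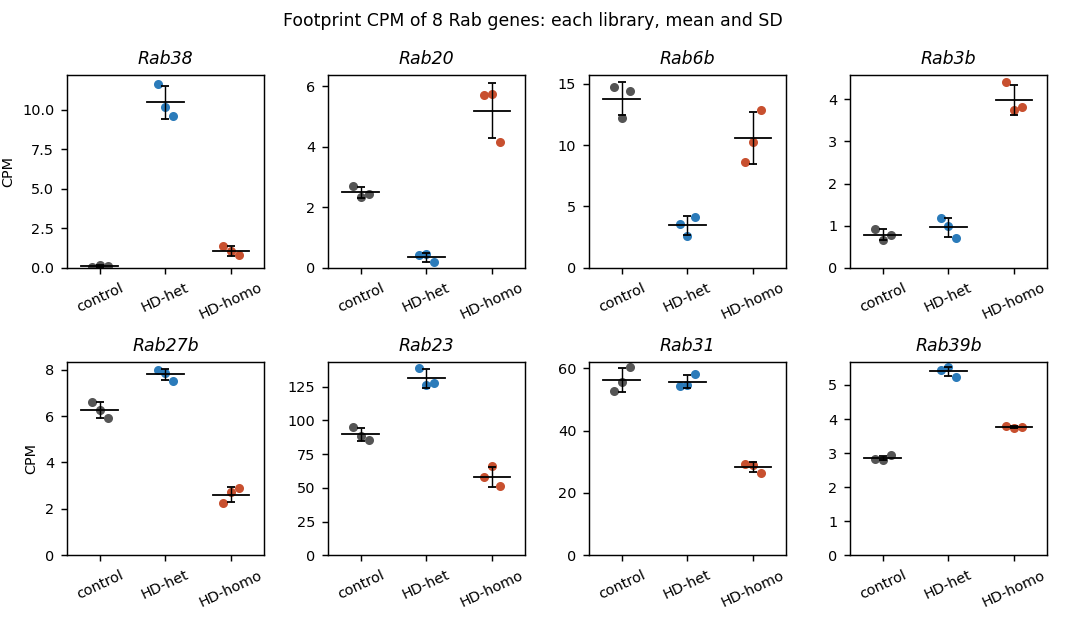
CPM of 8 Rab genes in each library (points) with the mean (horizontal bar) and SD of 3 libraries per line; every vertical axis starts at 0 and differs between panels. Rab38 and Rab39b are highest in HD-het, Rab20 and Rab3b in HD-homo, Rab6b is lowest in HD-het, and Rab27b, Rab23 and Rab31 are lowest in HD-homo cells.

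Early endosomes receive cargo from the plasma membrane. Of the 7 Rab genes grouped here none was higher and 3 were lower in HD-het than control cells, 1 was higher and 2 were lower in HD-homo than control cells, and 2 were higher and 1 was lower in HD-homo than HD-het cells. That is 42.9% called in each comparison, against 60.1%, 45.7% and 67.5% of all rows, and 29.1% of all rows were lower in HD-het than control cells. The widest difference was that of Rab20 (chromosome 8, 11453390 to 11478640, minus strand), which acts on endosomes and maturing phagosomes. It had 2.71, 2.33 and 2.44 CPM for control, 0.417, 0.467 and 0.189 for HD-het and 5.701, 5.73 and 4.17 for HD-homo. The lines did not overlap, HD-homo being highest and HD-het lowest. HD-het cells were below control (log2FC -2.71, SE 0.27, edgeR adjusted p = 8.88e-06) and HD-homo cells above it (log2FC 1.07, SE 0.20, edgeR adjusted p = 0.00102), and HD-homo against HD-het had a log2FC of 3.78 (SE 0.26, edgeR adjusted p = 2.76e-07).

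Rab31, which moves cargo from the trans-Golgi network to endosomes, separated HD-homo from the other lines. Libraries held 52.8, 55.5 and 60.4 CPM for control, 54.3, 54.7 and 58.1 for HD-het and 29.4, 28.9 and 26.5 for HD-homo. Control and HD-het overlapped, and all HD-homo libraries lay below them (log2FC -0.99, SE 0.09, edgeR adjusted p = 3.00e-06 against control, and log2FC -0.98, SE 0.09, edgeR adjusted p = 1.91e-06 against HD-het). Its paralog Rab22a, also a regulator of early endosomes, had 32.5, 36.1 and 31.7 CPM for control, 34.4, 38.9 and 33.3 for HD-het and 33.8, 32.8 and 27.4 for HD-homo, with overlap among all lines and no call.

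Among the Rab5 genes, which drive the fusion of early endosomes, Rab5c alone passed a test. Rab5c had 118, 120.2 and 122 CPM for control, 87.02, 84.1 and 90.3 for HD-het and 139, 141 and 129.9 for HD-homo, lowest in HD-het (log2FC -0.46, SE 0.07, edgeR adjusted p = 2.00e-04 against control) and higher in HD-homo than HD-het cells (log2FC 0.65, SE 0.07, edgeR adjusted p = 1.09e-05). HD-homo libraries were also above all control libraries, with log2FC 0.19, SE 0.07, edgeR adjusted p = 0.0513, which missed the threshold. Rab5a, at 69.5 to 97.1 CPM over all libraries, and Rab5b, at 36.9 to 49.9, had no call, and 83.3% of the 26-base windows of the Rab5b coding sequence and 30.02% of those of Rab5a occur elsewhere in the genome, against 0% for Rab5c. Rab21, which carries integrins, was lower in both mutant lines, with 70.1, 75.3 and 71.96 CPM for control, 52.03, 63.9 and 57.9 for HD-het and 60.5, 61.5 and 55.2 for HD-homo. Both were below all control libraries (log2FC -0.32, SE 0.09, edgeR adjusted p = 0.00947 for HD-het, and log2FC -0.29, SE 0.09, edgeR adjusted p = 0.0205 for HD-homo). The HD-homo call was lost without control replicate 2 or HD-homo replicate 3, with an edgeR adjusted p of up to 0.0775.

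Rab genes of the ER and Golgi carry the early secretory pathway. Of 12 tested members 3 were higher and 3 lower in HD-het than control cells, none was called in HD-homo against control, and 3 were higher and 2 lower in HD-homo than HD-het cells. The shares called were 50.0%, 0% and 41.7%, against 60.1%, 45.7% and 67.5% of all rows. Libraries of HD-homo and control did not overlap in 2 of the 12, against 55.5% of all rows. In the difference between the mutant lines, which was tested directly, the calls were Rab1b, Rab34 and Rab6b higher and Rab2a and Rab6a lower in HD-homo cells.

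Rab6b (chromosome 9, 103111667 to 103185276, plus strand), the form of the Golgi regulator Rab6 that is abundant in neurons, had 14.7, 12.2 and 14.4 CPM for control, 3.57, 2.64 and 4.16 for HD-het and 8.62, 10.2 and 12.9 for HD-homo. HD-het libraries lay below all the others (log2FC -2.01, SE 0.19, edgeR adjusted p = 6.55e-06 against control). HD-homo overlapped control in 1 library and missed the threshold (log2FC -0.39, SE 0.17, edgeR adjusted p = 0.0918), while it was above HD-het (log2FC 1.63, SE 0.19, edgeR adjusted p = 1.95e-05). The widely expressed Rab6a, which returns cargo from endosomes through the Golgi to the ER, moved the opposite way, with 99.2, 95.8 and 103 CPM for control, 136, 137 and 118 for HD-het and 89.4, 101 and 86.4 for HD-homo. It was higher in HD-het than control cells (log2FC 0.39, SE 0.09, edgeR adjusted p = 0.00271) and lower in HD-homo than HD-het cells (log2FC -0.50, SE 0.09, edgeR adjusted p = 4.49e-04). The gene of Rab6a overlaps Mrpl48, and 24.9% of its 26-base windows occur elsewhere in the genome.

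Rab1b, which shares the ER-to-Golgi step with Rab1a, had 177, 179 and 191 CPM for control, 124, 123 and 137 for HD-het and 159.5, 171 and 164 for HD-homo. It was lowest in HD-het (log2FC -0.51, SE 0.08, edgeR adjusted p = 1.64e-04 against control, and log2FC 0.36, SE 0.08, edgeR adjusted p = 0.00133 for HD-homo against HD-het). Rab1a showed no call at 307 to 385 CPM over all libraries. Rab34, which positions lysosomes and takes part in building the cilium, had 60.9, 59.2 and 70.3 CPM for control, 45.5, 47.4 and 55.3 for HD-het and 61.4, 61.4 and 69.4 for HD-homo, with HD-het below all other libraries (log2FC -0.36, SE 0.10, edgeR adjusted p = 0.0102 against control).

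Rab2a had 289, 284 and 295 CPM for control, 356, 344 and 358 for HD-het and 233, 296 and 248 for HD-homo. The HD-het libraries were highest (log2FC 0.29, SE 0.09, edgeR adjusted p = 0.01804 against control), a call lost without control replicate 1 or 2 or HD-het replicate 1 or 3, with an edgeR adjusted p of up to 0.07003, and HD-homo cells were below them (log2FC -0.44, SE 0.09, edgeR adjusted p = 0.00113). For Rab2a 44.3% of the 26-base windows occur elsewhere in the genome. Rab43, another Golgi regulator, had 4.54, 5.19 and 6.54 CPM for control, 8.197, 6.85 and 7.38 for HD-het and 6.98, 7.42 and 6.21 for HD-homo and a single call, higher in HD-het than control (log2FC 0.46, SE 0.15, edgeR adjusted p = 0.0204), lost without control replicate 1 or 2 or HD-het replicate 1, with an edgeR adjusted p of up to 0.104. Rab2b, Rab18, Rab30, Rab33b and Rab36 had no call.

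Recycling endosomes return receptors to the cell surface. Of the 8 tested members 3 were higher and 1 lower in HD-het than control cells, 2 were higher and 1 lower in HD-homo than control cells, and 3 were higher and 3 lower in HD-homo than HD-het cells. The shares called, 50.0%, 37.5% and 75.0%, lay near those of all rows at 60.1%, 45.7% and 67.5%. Rab4b, which acts in fast recycling, had 16.9, 18.2 and 18.8 CPM for control, 24.4, 23.8 and 27.8 for HD-het and 16.4, 17.8 and 14.5 for HD-homo. HD-het was above every other library (log2FC 0.49, SE 0.10, edgeR adjusted p = 0.00177 against control, and log2FC -0.64, SE 0.11, edgeR adjusted p = 2.38e-04 for HD-homo against HD-het). Rab4a had the same order of lines at a lower level, with 9.93, 8.94 and 8.76 CPM for control, 10.7, 11.8 and 11.5 for HD-het and 8.48, 9.67 and 8.47 for HD-homo, and its rise in HD-het (log2FC 0.30, SE 0.11, edgeR adjusted p = 0.0303) was lost without control replicate 2 or 3 or HD-het replicate 2 or 3, with an edgeR adjusted p of up to 0.117.

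Rab14, which links the Golgi with recycling endosomes, rose in HD-homo cells. Its values were 146, 142 and 146 CPM for control, 166, 168 and 154 for HD-het and 193, 198 and 202 for HD-homo, with all HD-homo libraries above all HD-het libraries and these above control (log2FC 0.45, SE 0.07, edgeR adjusted p = 3.01e-04 for HD-homo against control). HD-het against control had log2FC 0.17, SE 0.07, edgeR adjusted p = 0.0538, which missed the threshold. Rab35, which recycles cargo from the plasma membrane, had 78.1, 74.9 and 71.6 CPM for control, 73.8, 74.6 and 62.2 for HD-het and 97.1, 93.5 and 83.98 for HD-homo and was highest in HD-homo (log2FC 0.38, SE 0.09, edgeR adjusted p = 0.00347 against HD-het). Its call against control (log2FC 0.29, SE 0.09, edgeR adjusted p = 0.0246) was lost without control replicate 1, 2 or 3 or HD-homo replicate 1, with an edgeR adjusted p of up to 0.0848.

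Rab12, which sends transferrin receptor to lysosomes, was lowest in HD-homo cells, with 49.7, 45.9 and 46.6 CPM for control, 42.9, 44.1 and 36.5 for HD-het and 33.4, 35.1 and 35.9 for HD-homo. The difference from control was log2FC -0.45, SE 0.09, edgeR adjusted p = 0.0019997, and that from HD-het (log2FC -0.24, SE 0.09, edgeR adjusted p = 0.0326) was lost without HD-het replicate 1 or 2 or HD-homo replicate 1 or 2, with an edgeR adjusted p of up to 0.1203. Rab17, known from polarised epithelia and dendrites, varied widely among its replicates, with 1.68, 1.12 and 2.48 CPM for control, 1.06, 0.715 and 1.09 for HD-het and 1.28, 4.17 and 3.33 for HD-homo. HD-homo and control libraries overlapped, while all HD-het libraries lay below both. The test passed against HD-homo (log2FC 1.61, SE 0.44, edgeR adjusted p = 0.00677) and not against control (log2FC -0.88, SE 0.45, edgeR adjusted p = 0.115).

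Rab11a and Rab11b run slow recycling and have been studied in Huntington disease. Rab11a had 141, 145 and 148 CPM for control, 175, 179 and 152 for HD-het and 167, 178 and 161 for HD-homo and was higher in HD-het than control cells (log2FC 0.22, SE 0.08, edgeR adjusted p = 0.0382), a call lost without control replicate 1, 2 or 3 or HD-het replicate 1 or 2, with an edgeR adjusted p of up to 0.161. HD-homo libraries were also all above control, with log2FC 0.22, SE 0.08, edgeR adjusted p = 0.0502, which missed the threshold. Rab11b had 113, 114 and 106 CPM for control, 99.1, 91.9 and 89.8 for HD-het and 119.6, 99.8 and 103 for HD-homo and was lower in HD-het than control cells (log2FC -0.24, SE 0.09, edgeR adjusted p = 0.0308), lost without control replicate 1 or 2 or HD-het replicate 2 or 3, with an edgeR adjusted p of up to 0.0893. Of the 26-base windows of Rab11b 95.9% occur elsewhere in the genome, so its counts depend on how fragments that match several places were treated, which is not given in the sources used here.

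Exocytic Rabs deliver vesicles to the plasma membrane, and 9 of 10 were tested. In HD-het cells 2 were higher and none lower than in control, in HD-homo cells 4 were higher and 1 lower than in control, and 2 were higher and 2 lower in HD-homo than HD-het cells. The shares called were 22.2%, 55.6% and 44.4%, and those of all rows 60.1%, 45.7% and 67.5%. Rab3b (chromosome 4, 108879070 to 108943324, plus strand), a Rab of regulated secretion and synaptic vesicles, had 0.916, 0.666 and 0.7899 CPM for control, 1.18, 0.9899 and 0.709 for HD-het and 4.39, 3.75 and 3.81 for HD-homo. All HD-homo libraries stood far above the others (log2FC 2.35, SE 0.21, edgeR adjusted p = 3.91e-06 against control, and log2FC 2.04, SE 0.21, edgeR adjusted p = 5.77e-06 against HD-het), and HD-het overlapped control. Rab3d, known from secretory granules of exocrine and immune cells, had 2.56, 2.497 and 1.92 CPM for control, 2.58, 2.31 and 2.55 for HD-het and 3.56, 4.36 and 3.37 for HD-homo, with HD-homo again highest (log2FC 0.69, SE 0.17, edgeR adjusted p = 0.00629 against control). Rab3a, the form of synaptic vesicles, ran from 3.63 to 6.84 CPM and Rab3c from 2.95 to 6.42 CPM over all libraries, with no call.

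Rab10, which carries vesicles such as those of the glucose transporter Glut4 to the surface, had 157, 162 and 143 CPM for control, 224, 215 and 229 for HD-het and 140.2, 133 and 138 for HD-homo. HD-het was above all other libraries (log2FC 0.54, SE 0.08, edgeR adjusted p = 1.09e-04 against control, and log2FC -0.70, SE 0.08, edgeR adjusted p = 9.70e-06 for HD-homo against HD-het). Rab8b, which acts between Golgi and plasma membrane, was higher in both mutant lines, with 52.9, 50.8 and 51.4 CPM for control, 71.2, 65.8 and 77.6 for HD-het and 64.5, 80.2 and 68.02 for HD-homo (log2FC 0.47, SE 0.10, edgeR adjusted p = 0.00165 for HD-het, and log2FC 0.46, SE 0.10, edgeR adjusted p = 0.00286 for HD-homo). Of its 26-base windows 42.4% occur elsewhere in the genome. Rab8a, which serves the same route and the cilium, had 80.95, 81.01 and 83.5 CPM for control, 89.4, 89.7 and 90.8 for HD-het and 91.7, 93.5 and 108 for HD-homo, and its rise in HD-homo (log2FC 0.26, SE 0.08, edgeR adjusted p = 0.0217) was lost without control replicate 1 or 2 or HD-homo replicate 3, with an edgeR adjusted p of up to 0.0905. Rab13, a Rab of epithelial junctions, had 18.4, 18.4 and 20.4 CPM for control, 21.4, 18.9 and 16.6 for HD-het and 12.4, 16.5 and 11.97 for HD-homo and was lower in HD-homo than HD-het (log2FC -0.48, SE 0.14, edgeR adjusted p = 0.00941) and control cells (log2FC -0.49, SE 0.14, edgeR adjusted p = 0.0139), the latter lost without HD-homo replicate 3, with an edgeR adjusted p of 0.0521. Rab26 had no call.

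**Figure D4:**
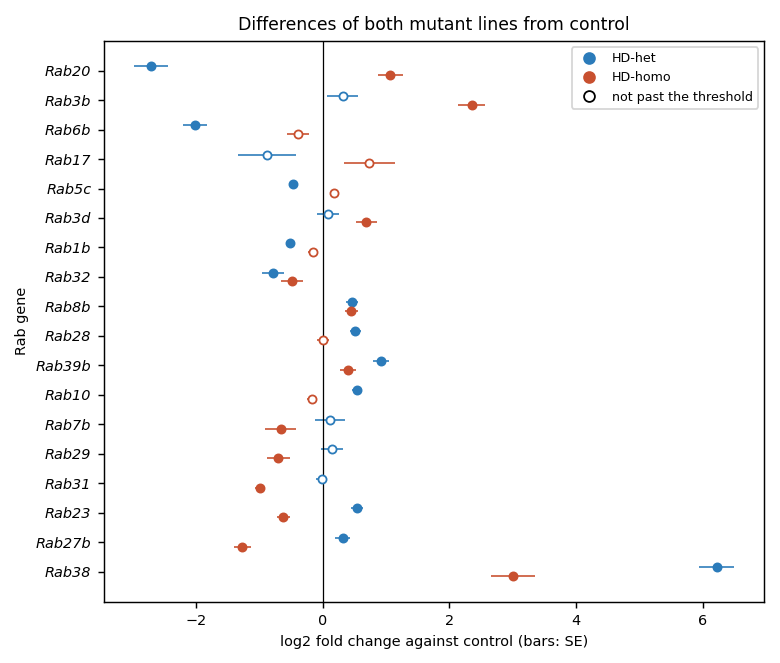
Fitted log2 fold change of HD-het (blue) and HD-homo (red) against control for the 18 Rab genes with the largest called differences, with SE bars; filled points passed edgeR's adjusted threshold, open points did not, and both lines share the control libraries. Rab20, Rab27b and Rab23 have filled points on opposite sides of 0, while both points of Rab38, Rab8b and Rab39b lie above it and both of Rab32 below it.

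Late endosomes and lysosomes are represented by 4 tested members. None was called in HD-het against control (60.1% of all rows), and 1, Rab7b, was lower in HD-homo than in control (22.3% of all rows) and in HD-het cells (32.8% of all rows). Rab7b, which returns cargo from late endosomes to the Golgi, had 1.99, 1.83 and 2.07 CPM for control, 1.94, 2.1997 and 2.22 for HD-het and 1.22, 1.68 and 0.754 for HD-homo. HD-homo libraries were lowest (log2FC -0.78, SE 0.24, edgeR adjusted p = 0.0141 against HD-het), and the call against control (log2FC -0.66, SE 0.24, edgeR adjusted p = 0.0434) was lost without control replicate 1, 2 or 3, HD-het replicate 1 or 2 or HD-homo replicate 1 or 3, with an edgeR adjusted p of up to 0.1099. Rab7 ran from 275 to 332 CPM over all libraries, Rab9 from 23.9 to 33.0 and Rab24, which acts in autophagy, from 17.0 to 22.2, with no call. For Rab7 68.6% and for Rab9 43.7% of the 26-base windows occur elsewhere in the genome.

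Rab23 (chromosome 1, 33719896 to 33742564, plus strand), a negative regulator of Hedgehog signalling at the cilium, had 94.97, 88.6 and 85.6 CPM for control, 139, 126 and 128 for HD-het and 57.7, 66.1 and 51.3 for HD-homo. The lines did not overlap, with HD-het highest and HD-homo lowest. HD-het was above control (log2FC 0.55, SE 0.10, edgeR adjusted p = 5.55e-04) and HD-homo below it (log2FC -0.62, SE 0.10, edgeR adjusted p = 3.58e-04), and HD-homo against HD-het had a log2FC of -1.17 (SE 0.10, edgeR adjusted p = 1.49e-06). Rab28, which acts at the cilium of photoreceptors, had 13.9, 13.6 and 13.8 CPM for control, 19.2, 20.95 and 19.01 for HD-het and 13.3, 14.03 and 14.2 for HD-homo, higher in HD-het than control cells (log2FC 0.52, SE 0.09, edgeR adjusted p = 4.04e-04) and lower in HD-homo than HD-het cells (log2FC -0.51, SE 0.09, edgeR adjusted p = 3.31e-04).

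Rab39b, whose human gene is mutated in X-linked intellectual disability and early parkinsonism, had 2.83, 2.81 and 2.93 CPM for control, 5.43, 5.53 and 5.25 for HD-het and 3.78, 3.75 and 3.77 for HD-homo. Replicates lay close together and the lines did not overlap. HD-het cells were highest (log2FC 0.92, SE 0.12, edgeR adjusted p = 6.34e-05 against control), and HD-homo cells lay between them and control (log2FC 0.40, SE 0.12, edgeR adjusted p = 0.0206 against control), the latter call lost without control replicate 1 or 2, with an edgeR adjusted p of up to 0.0754. Rab40b and Rab40c, which carry a SOCS box and work with ubiquitin ligases, had no call.

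By the order of the lines, 10 Rab genes had HD-het above both other lines with both differences called, and they were Rab2a, Rab4a, Rab4b, Rab6a, Rab10, Rab23, Rab27b, Rab28, Rab38 and Rab39b. That is 20.0% of those tested, and 21.8% of all rows had this order. HD-het was below both other lines in 6, namely Rab1b, Rab5c, Rab6b, Rab20, Rab27a and Rab34, or 12% against 21.9% of all rows. HD-homo was above both in 4 (Rab3b, Rab3d, Rab14 and Rab35) and below both in 5 (Rab7b, Rab12, Rab13, Rab29 and Rab31), against 9.92% and 8.65% of all rows. Control was above both mutant lines in Rab21 and Rab32 (3.57% of all rows) and below both in Rab8b (4.39% of all rows). Counting all Rab genes, 16 of the 22 calls of HD-het against control, 11 of the 18 of HD-homo against control and 24 of the 26 between the mutant lines held under every alternative in which the gene was tested.

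Many Rabs come as close paralogs, and the makeup of a paralog set was compared per codon within each library. Coding sequences of the sets were between 64.05% (Rab7 and Rab7b) and 78.5% (Rab6a and Rab6b) identical in their aligned bases, and 43 of the 59 genes shared no 26-base window with another Rab. In 13 of 16 sets the same member led in all 9 libraries. Rab38 made up 0.394% ± 0.203 of the Rab32 and Rab38 counts per codon in the control libraries (SD, n = 3). In HD-het this was 35.8% ± 2.25 and in HD-homo 4.66% ± 1.35. Rab6b was 12.2% ± 0.801 of Rab6 for control, 2.62% ± 0.755 for HD-het and 10.3% ± 2.31 for HD-homo. The share of Rab27a in the Rab27 pair was 9.14% ± 3.09 for control, 2.54% ± 1.41 for HD-het and 20.9% ± 4.89 for HD-homo, and it did not overlap between any 2 lines.

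Within the 4 Rab3 genes, Rab3b took 6.52% ± 0.959 for control, 6.86% ± 1.55 for HD-het and 23.1% ± 5.88 for HD-homo. Rab3c had 41.5% ± 4.66, 39.4% ± 2.74 and 25.3% ± 5.52 in that order of lines, while its own CPM had no call. Rab31 led Rab22a in all control and HD-het libraries with 62.6% ± 2.6003 and 60.9% ± 2.56, and Rab22a led in all HD-homo libraries, where Rab31 was 47.4% ± 1.46. Rab1b was 36.8% ± 1.87 of the Rab1 pair for control, 27.97% ± 2.701 for HD-het and 31.9% ± 1.89 for HD-homo. These shares are descriptions and were not tested beyond the fits of the single genes.

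**Figure D5:**
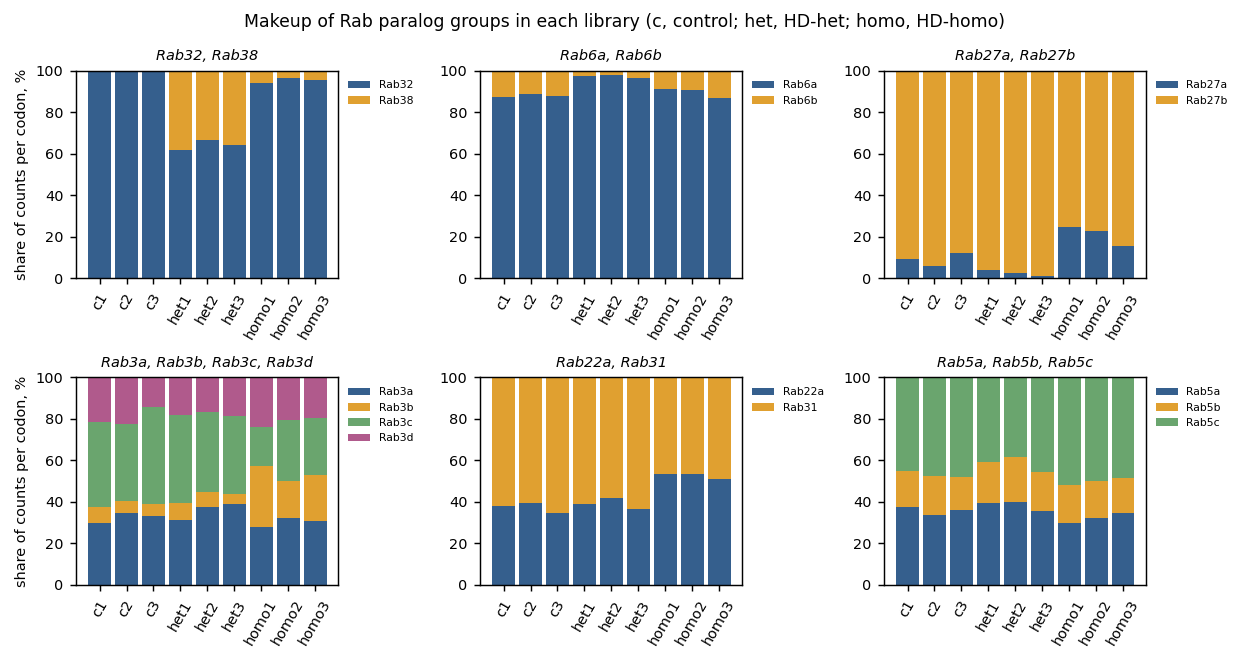
Stacked bars give, for 6 sets of Rab paralogs, the share of each member in the counts per codon of the set in each of the 9 libraries (percent). Rab38 is visible in the HD-het libraries and thin elsewhere, Rab6b is thinnest in HD-het, Rab27a and Rab3b are widest in HD-homo, and Rab22a passes Rab31 in HD-homo.

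Genes that load, extract and read Rabs were followed alongside, from lists written from general knowledge but with earlier results of these data known. Of 132 such genes with a row 121 were tested, and 64 (52.9%) were called in HD-het against control, 38 higher and 26 lower. In HD-homo against control 56 (46.3%) were called, 26 higher and 30 lower, and between HD-homo and HD-het 80 (66.1%), 40 in each direction. Over all rows 60.1% were called in HD-het against control, 31.0% higher and 29.1% lower. In HD-homo against control 45.7% were called, 23.3% higher and 22.3% lower, and between the mutant lines 67.5%.

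The machinery that prenylates Rabs and keeps them soluble has 8 genes here, all tested. Against control 3 were higher and 2 lower in HD-het and none higher and 3 lower in HD-homo cells. That is 62.5% and 37.5% called, against 60.1% and 45.7% of all rows. Rabggtb, the catalytic subunit of the enzyme that adds the geranylgeranyl lipids, had 156, 152 and 157 CPM for control, 69.2, 74.9 and 77.5 for HD-het and 104, 97.6 and 124 for HD-homo. It was lower in both mutant lines (log2FC -1.07, SE 0.10, edgeR adjusted p = 4.39e-06 for HD-het, and log2FC -0.52, SE 0.10, edgeR adjusted p = 0.00102 for HD-homo), and the partner subunit Rabggta was not called in either. Of the Rab escort proteins, Chm was higher in HD-het (log2FC 0.36, SE 0.10, edgeR adjusted p = 0.00739) and Chml lower in HD-homo cells (log2FC -0.86, SE 0.16, edgeR adjusted p = 8.79e-04). Gdi2, a widely expressed GDP dissociation inhibitor, was lower in HD-het than control cells (log2FC -0.31, SE 0.08, edgeR adjusted p = 0.006796).

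Among 32 tested GEFs 11 were higher and 8 lower in HD-het and 8 higher and 7 lower in HD-homo than control cells. The shares called were 59.4% and 46.9%, near the 60.1% and 45.7% of all rows. Rin2, an exchange factor for Rab5, had 6.15, 5.87 and 5.38 CPM for control, 23.9, 23.8 and 27.3 for HD-het and 28.8, 25.96 and 33.4 for HD-homo and was higher in both mutant lines (log2FC 2.10, SE 0.12, edgeR adjusted p = 1.94e-07 for HD-het, and log2FC 2.34, SE 0.12, edgeR adjusted p = 4.84e-08 for HD-homo). Madd, an exchange factor for the Rab3 and Rab27 genes' products, was lower in HD-het than control (log2FC -1.10, SE 0.14, edgeR adjusted p = 5.17e-05). Hps1, which with Hps4 forms the exchange factor for Rab32 and Rab38, was higher in HD-homo than control cells (log2FC 0.94, SE 0.14, edgeR adjusted p = 2.00e-04) and had log2FC 0.23, SE 0.14, edgeR adjusted p = 0.186 in HD-het, while Hps4 was not called. Ankrd27, which binds Rab32 and Rab38 and activates Rab21, was lower in HD-het than control cells (log2FC -0.78, SE 0.15, edgeR adjusted p = 0.00101).

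Among 35 tested GAPs 6 were higher and 10 lower in HD-het and 9 higher and 7 lower in HD-homo than control cells. The share called was 45.7% in each, against 60.1% and 45.7% of all rows. Tbc1d30, which is able to act on Rab8, had 2.86, 2.69 and 3.197 CPM for control, 2.77, 3.05 and 4.07 for HD-het and 0.0834, 0.115 and 0.0887 for HD-homo. The pooled level in control over that in HD-homo cells was 30.5 (95% exact interval 15.2 to 71.3), counting error only, from 273 and 8 counts. Tbc1d2, which acts on Rab7, was lowest in HD-het cells, with 7.103, 7.68 and 8.28 CPM for control, 2.05, 1.95 and 2.55 for HD-het and 5.34, 5.66 and 5.498 for HD-homo (log2FC -1.83, SE 0.14, edgeR adjusted p = 1.51e-06 against control).

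Of 46 tested effectors 18 were higher and 6 lower in HD-het, and 9 higher and 13 lower in HD-homo than control cells. That is 52.2% and 47.8% called, against 60.1% and 45.7% of all rows, of which 31.0% were higher and 29.1% lower in HD-het and 23.3% higher and 22.3% lower in HD-homo. The synaptotagmin-like proteins tether Rab27 vesicles to the plasma membrane. Sytl2 had 13.6, 13.8 and 12.3 CPM for control, 51.99, 52.8 and 58.5 for HD-het and 1.95, 3.63 and 3.95 for HD-homo. It was higher in HD-het (log2FC 2.04, SE 0.17, edgeR adjusted p = 3.21e-06) and lower in HD-homo cells (log2FC -2.09, SE 0.20, edgeR adjusted p = 6.52e-06) than in control. Rab27b had the same order of lines, but Sytl1 and Sytl4 did not, and 21.8% of all rows had HD-het above both other lines. Sytl1 and Sytl4 were rare in control and HD-het cells, with 4 and 2 counts over the control libraries and 7 and 5 over the HD-het libraries. HD-homo libraries held 90 and 103 counts, and pooled levels in HD-homo over control were 25.2 (95% exact interval 9.51 to 94.5) and 57.7 (95% exact interval 15.6 to 483), counting error only. Rims2, a Rab3 effector of vesicle release sites, was lower in HD-homo than control cells, with 16.000, 15.7 and 15.8 CPM for control, 17.99, 16.9 and 13.8 for HD-het and 1.72, 1.72 and 1.24 for HD-homo (log2FC -3.32, SE 0.15, edgeR adjusted p = 1.97e-08). F8a, whose product HAP40 binds huntingtin and acts with Rab5, had 2.94, 3.38 and 3.27 CPM for control, 3.19, 2.805 and 2.41 for HD-het and 1.97, 1.45 and 1.11 for HD-homo and was lower in HD-homo than control cells (log2FC -1.05, SE 0.21, edgeR adjusted p = 0.00172). Optineurin (Optn), which joins Rab8 to huntingtin, was higher in both mutant lines, with 16.1, 14.9 and 15.7 CPM for control, 36.6, 36.7 and 31.01 for HD-het and 29.8, 35.8 and 43.4 for HD-homo (log2FC 1.16, SE 0.13, edgeR adjusted p = 2.45e-05 for HD-het, and log2FC 1.22, SE 0.13, edgeR adjusted p = 2.06e-05 for HD-homo).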

How the data were processed

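The values deposited by the authors are raw footprint counts, with a row for each gene symbol and a column for each of the 9 libraries, neither normalized nor pooled. Per the submitters' processing notes, cutadapt, Bowtie 1.0.1 and genome build mm10 were used. The counting program, the annotation, the use of strand and the treatment of fragments that match several places are not given in the sources used here, so overlapping genes and genes with copies elsewhere are uncertain. Besides Rab6a, the Rab genes that overlap another annotated gene include Rab3b, Rab10, Rab20 and Rab27b. Matched mRNA was not used here, so values are footprint abundances.

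Differences were tested on the deposited counts with edgeR 4.0.16 (limma 3.58.1, R 4.3.3), using TMM factors, the filterByExpr filter by line and a quasi-likelihood F test with line means as the only terms. All 9 libraries entered 1 fit of 12678 of 36410 rows, and 19597 rows were at 0 in every library. Adjustment followed Benjamini and Hochberg over all rows tested, with a threshold of 0.05. CPM were computed from library totals times TMM factors. The p-values measure the spread between rounds of culture of 1 line per genotype. Libraries of 1 line correlated at 0.987 or more in log2 counts across genes (genes are not replicates).

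Positions, coding lengths and sequences came from RefSeq in GRCm38.p6. For each gene 1 coding sequence was used, and each of its 26-base windows was looked up on both strands of the genome. The counts of Sytl1 and other low genes were pooled per line, and their ratios carry exact (Clopper-Pearson) 95% intervals for counting error only.

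Named with full statistics were, in each comparison, the 5 Rab genes with the largest called rise and the 5 with the largest called fall whose higher line had a mean of at least 1 CPM, the paralog sets and the 5 genes highest per codon. Other Rab genes, and regulators, were named by role after their values were seen. The members, the role lists and the regulator lists were chosen with earlier results of these data known. Alternatives were RLE size factors, library totals only, DESeq2 1.42.0, the unfiltered table, a minimum of 10 counts per library, fits of only 6 libraries, a replicate block, removal of 288 rows under older symbols, and leaving out each library in turn. The test was tested on simulated data for HD-het against control over 12520 genes. It found 43.3% of 1.5-fold, 88.1% of 2-fold and 100% of 4-fold changes, with 13 false among 167 calls. There 67, 67 and 66 genes were changed by these folds, while 60.1% of rows were called in the real comparison. The changed genes were drawn only from rows above a minimum mean count, so the lowest rows were not covered. Adjustment is stricter where few genes differ, so these rates do not carry over to the data.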

Additional observations from a re-analysis of the deposited data

Results flagged for a closer look

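In 3 Rab genes the HD-het and HD-homo lines differed from control in opposite directions, and the difference between the mutant lines was itself tested. Rab20 was lower than control in HD-het cells and higher in HD-homo cells, with a log2 fold change of 3.78 for HD-homo against HD-het (SE 0.26, edgeR adjusted p = 2.76e-07). Rab23 was above control in HD-het and below it in HD-homo, with -1.17 on the log2 scale for HD-homo against HD-het (SE 0.10, edgeR adjusted p = 1.49e-06). Rab27b had the same order as Rab23, with a difference of -1.59 (SE 0.13, edgeR adjusted p = 1.33e-06), but its rise in HD-het against control was lost with any of the 6 libraries of that comparison left out. In each case every library of HD-het and every library of HD-homo lay on opposite sides of all control libraries. The summed mesenchymal and microglia markers were highest in the same HD-het libraries, and HD-homo libraries had the lowest striatal precursor sum (6092 to 6643 CPM, against 9648 to 9917 for control) and the highest astrocyte sum (11.96 to 14.1 CPM, against 2.48 to 4.01). The precursor sum includes Vim and is not broken down by marker. Only Tmem119 of the microglia markers, and no astrocyte marker, was at or above 1 CPM in every library. The part of these marker sums in the Rab differences was not tested.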

How the results depend on the processing

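Under the alternatives other than leaving out a library, 18 to 25 Rab genes were called in HD-het against control, 16 to 19 in HD-homo against control, 24 to 27 between the mutant lines and 29 to 32 in the test of any difference. Leaving out 1 library gave 16 to 23, 12 to 19, 25 to 27 and 26 to 32. For the regulators and effectors these ranges were 60 to 71, 51 to 58 and 69 to 83 under the other alternatives, and 58 to 67, 38 to 56 and 71 to 81 without 1 library. The lowest counts of both comparisons with control for the Rab genes, 16 and 12, came without control replicate 2, the deepest control library. The share of all rows called is not given for these alternatives. Changes in these counts therefore cannot be read as particular to the Rab genes or their regulators.

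Of 40 called differences of the 18 Rab genes with the largest changes, 36 kept direction and call under every alternative in which the gene was tested. Of 14 not called, 5 were called under at least 1 alternative. No difference of a tested Rab gene was called in the opposite direction under an alternative. Over all Rab genes, 14 called differences were lost without 1 library, and none of a Rab gene or regulator moved by over 1.5-fold when 1 library was left out. Many called differences were themselves under 1.5-fold, so this limit says little about how stable they are. Rab32 in HD-homo against control went from a log2FC of -0.49 to -0.31 without HD-homo replicate 3 and lost its call within this limit. A depth of 22504543 to 41888701 counts leaves 9 Rab genes untested. In simulated data with few changed genes, changes of 1.5-fold were often missed, a rate that does not carry over to these data.

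Same-numbered libraries of different lines had correlations of their deviations from -0.44 to 0.21, and differently numbered ones from -0.36 to 0.48. These values show no pairing by replicate number, but 3 libraries per line cannot exclude it. With the replicate number as a block, 21, 18 and 26 Rab genes were called in the 3 comparisons and 31 in the test of any difference, and 63, 55 and 78 regulators and effectors. The share of all rows called with this block is not given here.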
